A study of Mus musculus with 8 samples.

Results

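The endothelial cluster #e7 is 1 of 8 clusters into which the endothelial cells of an adult mouse liver atlas were divided. It was taken here as the cells that the multilevel clustering in the deposited cell table places in cluster 7, which gave 150 of 1106 endothelial cells and of 3491 cells in the whole atlas. The cells came from 71 male and 79 female wells. In the deposited annotation, all 150 cells carry the same central vein label as the 152 cells of #e1, whereas the 112 cells of #e6 are labelled as last sinusoid and the 542 cells of #e3, #e5 and #e8 as sinusoidal endothelium. A clustering of all cells of the atlas put 146 of the 150 cells into the cluster that also holds all 152 cells of #e1 and 108 cells of #e6. Cluster #e7 was therefore set against #e1, against the mean of the sinusoidal clusters #e3, #e5, #e6 and #e8, and against #e6 alone.

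The atlas was made from adult male and female C57BL6/J mice and from heterozygous reporter mice (*Pdgfrb* GFP, *Pdgfra* H2bGFP, *Cspg4* dsRED, *Acta2* GFP and *Cldn5* GFP, also combined), without treatment. Endothelial cells were sorted on CD31 and/or VE-cadherin antibodies or on the *Cldn5* reporter, and each well of a plate was sequenced as 1 cell by Smart-seq2, a full-length transcript protocol. The male and the female endothelial cells are the 2 samples of the series that hold #e7, each pools several mice, and the cells are not labelled with the mouse, the strain or the reporter. Sums of counts per cluster and pool were compared, so a p value reflects the spread between these 2 pools per cluster, and differences between the sexes are not tested.

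Endothelium of the hepatic central vein secretes WNT2, WNT9B and R-spondin 3 (*Rspo3*), which drive the pericentral programme of the neighbouring hepatocytes through beta-catenin. Sinusoidal endothelium is fenestrated and clears waste from blood through scavenger receptors such as stabilin 2 (*Stab2*), the mannose receptor (*Mrc1*) and, in the middle of the lobule, the hyaluronan receptor LYVE1. The receptor tyrosine kinase KIT is known from sinusoids close to the central vein. The levels of these genes serve below to describe #e7 beside vein and sinusoid.

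Cells of #e7 gave fewer counts and fewer genes than those of #e1 and #e6, beside every result that follows. The median total was 177419 counts per cell in #e7, 320683 in #e1 and 296860 in #e6. When each cell was thinned to 50000 counts, the median number of genes detected was 1572 in #e7, 2822 in #e1 and 2754.5 in #e6, and the other endothelial clusters lay between 2569 and 3269.5. Synthetic ERCC spike-ins, added to every well in equal amount, took a median of 5.05% of counts in #e7, against 1.68% in #e1 and 1.65% in #e6. Mitochondrial genes took 2.59%, 1.23% and 1.22% in the same order. The cells of #e7 came from 12 plates, of which 1 plate held 78 of the 79 female cells together with 47 cells of #e1 and 59 of #e6. On that plate alone the medians were 1418.5 genes in #e7, 2951 in #e1 and 2619 in #e6, with 4.51%, 1.34% and 1.62% of ERCC counts. Whether the RNA content takes part in the differences below was not tested, and in sums of counts fewer cells that express a gene and less RNA of it per cell cannot be told apart. The female sum of #e3 holds 6 cells and that of #e5 31 cells, the smallest among the sums compared. No cell name occurred in more than 1 library. Fitted fold changes use TMM scaling, whose factors were 0.871 and 0.779 in the male and female sums of #e7 and 0.945 to 1.11 in those of #e1, #e3, #e5, #e6 and #e8, so that they lie above plain ratios of CPM. With library totals alone the median log2 fold change of all genes against #e1 was -0.32 in place of -0.04, and against the sinusoidal clusters -0.45 in place of -0.11.

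The label of a *Lyve1*-negative cluster held in the counts. *Lyve1* reached 2.80 and 2.32 counts per 1000000 counts (CPM) in the male and the female sum of #e7, compared with 1.61 and 1.25 CPM in #e1, 19.9 and 2.32 CPM in #e6 and between 279 and 699 CPM in the 6 sums of #e3, #e5 and #e8. The groups of #e7 and of #e3, #e5 and #e8 did not overlap. The endothelial markers *Pecam1* (CD31) and *Cdh5* (VE-cadherin) were at 1571 and 1842 CPM and at 344 and 260 CPM in #e7, close to 1762 and 2264 CPM and 291 and 269 CPM in #e1. At least 1 *Lyve1* count was found in 43 of 150 cells of #e7 (28.7%, exact 95% interval 21.6 to 36.6%), in 54 of 152 cells of #e1 and in 40 of 397 parenchymal cells, which should lack the gene, at median totals of 177419, 320683 and 205585 counts. At the detection limit of 20 counts that the study used, 0 of 150 cells of #e7 were positive, which allows a share of up to 2%, while 122 of 236 cells of #e3 passed. The fitted log2 fold change against the sinusoidal clusters was -5.72 (SE 0.81, adjusted p = 0.0013, by the quasi-likelihood test of edgeR with p values adjusted after Benjamini and Hochberg over 18321 genes). The clusters were drawn on the same transcriptomes, so this and the following calls describe differences that exceed the spread between the pools and are no independent evidence for the clusters.

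*Rspo3* was at the level of the vein. Male and female sums of #e7 held 2060 and 1857 CPM, those of #e1 2605 and 1920 CPM and those of #e6 1964 and 1456 CPM. In #e3, #e5 and #e8 the level lay between 12.9 and 50.8 CPM. The 3 clusters #e1, #e7 and #e6 thus overlapped with each other and stood clear of the remaining sinusoid. Against the sinusoidal clusters the log2 fold change was 5.0 (SE 0.31, adjusted p = 2.5e-07). Against #e1 it was 0.08 (SE 0.45, adjusted p = 1.0), and its sign depended on the scaling, with -0.21 for library totals. The 6 plates with at least 5 cells of #e7 ranged from 367 to 2794 CPM.

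*Wnt2* and *Wnt9b*, the Wnt ligands of the central vein, followed the same order with a smaller distance for *Wnt2*. *Wnt2* reached 851 and 972 CPM in #e7, 896 and 786 CPM in #e1 and 966 and 1032 CPM in #e6, whereas #e3, #e5 and #e8 spread from 31.4 to 458 CPM. The order within #e1, #e7 and #e6 differed between the pools. Its log2 fold change against the sinusoidal clusters was 1.78 (SE 0.50) and missed the threshold (adjusted p = 0.10), but passed without the filter on low counts (1.79, adjusted p = 0.0015). *Wnt9b* stood at 429 and 460 CPM in #e7, at 651 and 635 CPM in #e1 and at 474 and 392 CPM in #e6, above 2.15 to 51.5 CPM in #e3, #e5 and #e8, and passed with a log2 fold change of 3.90 (SE 0.56, adjusted p = 0.0016). With sums per plate and the plate as a block, which sets clusters of the same plate against each other, this call was lost (2.30, adjusted p = 0.51). Of the 20 tested genes of the Wnt and R-spondin list, *Wnt9b* and *Rspo3* were called higher in #e7 than in the sinusoidal clusters and none lower, where 1.28% of all genes tested were called higher and 0.115% lower. Against #e1 0 of 20 were called, beside 0.00546% and 0.0109% of all genes.

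These ligands were detected in a smaller share of cells in #e7 than in #e1 and #e6. So were genes in general, with medians of 1572 genes at 50000 counts in #e7, 2822 in #e1 and 2754.5 in #e6. After thinning to 50000 counts, which left out 1 cell of #e7, at least 5 *Rspo3* counts were found in 120 of 149 cells of #e7 (80.5%, 73.3 to 86.6%), in all 152 cells of #e1 and in 103 of 112 cells of #e6. For *Wnt2* these were 69 of 149 cells (46.3%, 38.1 to 54.6%), 131 of 152 cells and 103 of 112 cells. *Wnt9b* passed in 36 of 149 cells of #e7, 107 of 152 cells of #e1 and 59 of 112 cells of #e6. Both pools showed this, with *Wnt2* in 33 of 70 male and 36 of 79 female cells of #e7. Without thinning, at least 20 *Wnt2* counts were present in 46.0% of cells in #e7, 86.2% in #e1 and 91.1% in #e6, and in 1 of 397 parenchymal cells. In #e3, #e5 and #e8 the share was 56.8%, 21.2% and 48.4%, at median totals of 303731, 153017 and 110837 counts. By this share *Wnt2* in #e7 lay below #e3 and #e8, unlike by its sums. *Rspo3* passed in 80.0% of cells of #e7 and in at most 7.20% of those of #e3, #e5 and #e8. The sums of *Wnt2* were similar in #e1, #e7 and #e6 while the share of cells was smaller in #e7. Whether cells without the gene lack it or lost it was not tested. The median male and female cell of #e7 held 38.6 and 41.8 CPM and the highest cells 4141 and 8381 CPM.

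*Kit*, the remaining marker given for the cluster, did not set #e7 apart by its sums. Its level was 647 and 287 CPM in #e7, 334 and 134 CPM in #e1, and 1214 and 1426 CPM in #e6. Sums of #e3, #e5 and #e8 lay between 303 and 1036 CPM and overlapped with #e7. In each pool #e7 stood between #e1 and #e6, but no difference passed the test, with log2 fold changes of 1.25 against #e1 (SE 0.93, adjusted p = 0.79), -1.24 against #e6 (SE 0.92, adjusted p = 0.77) and -0.22 against the sinusoidal clusters (SE 0.73, adjusted p = 0.96). In thinned cells, at least 5 *Kit* counts were found in 33 of 149 cells of #e7 (22.1%), 49 of 152 cells of #e1 (32.2%) and 98 of 112 cells of #e6 (87.5%). Without thinning, at least 20 *Kit* counts were present in 20.7% of cells of #e7, 70.3% of #e3, 35.8% of #e5 and 58.7% of #e8. The median totals were 177419, 303731, 153017 and 110837 counts in the same order. The share of cells with *Kit* was thus smaller in #e7 although the sums overlapped, and this difference was not tested. The plates of #e7 spread from 287 to 1670 CPM, and on the plate shared by the female cells #e7 held 287 CPM, #e1 102 CPM and #e6 1415 CPM. None of the 14 tested genes of the VEGF, Tie and KIT list was called in the 3 comparisons, where the share of all genes called in each direction was at most 1.28%, so this count does not set the list apart.

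**Figure D1:**
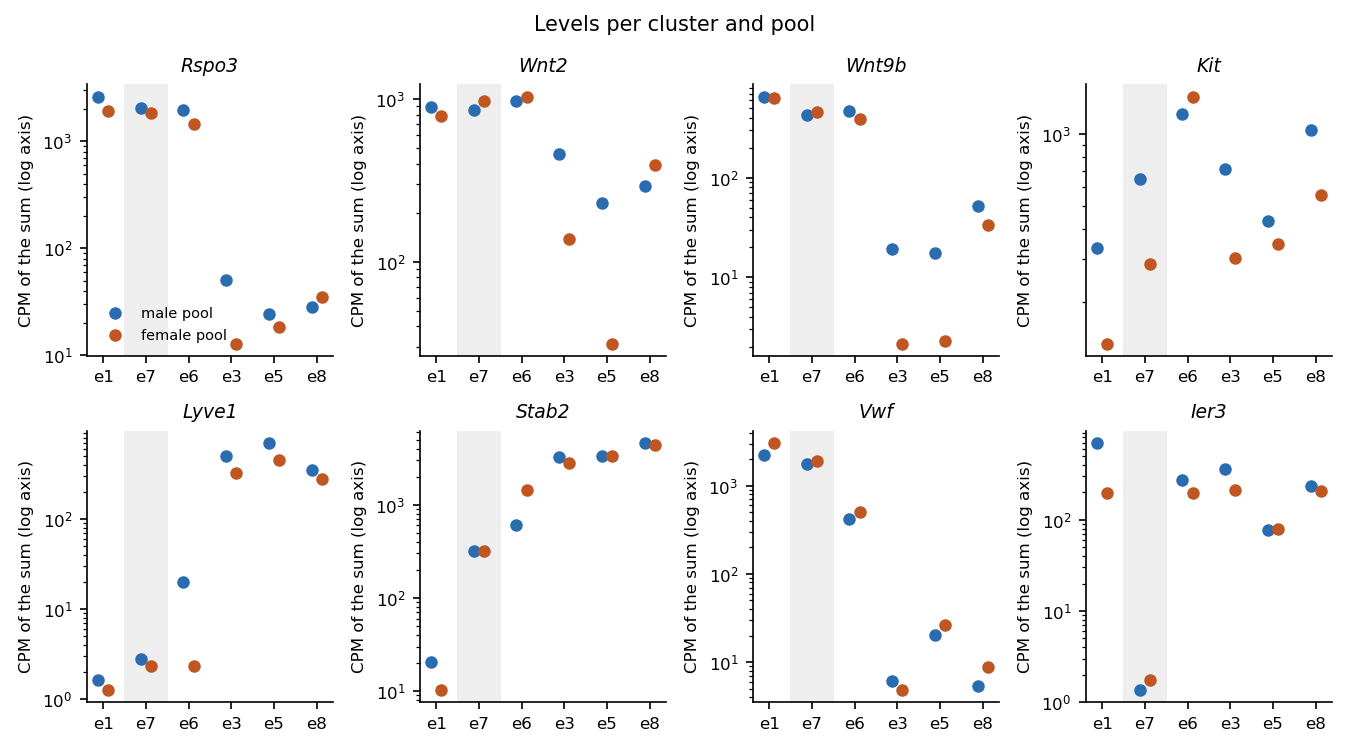
Level of 8 genes in the summed counts of clusters #e1, #e7, #e6, #e3, #e5 and #e8, in CPM on log axes, with 1 point for the male and 1 for the female pool and #e7 shaded. *Rspo3* in #e7 (2060 and 1857 CPM) sits with #e1 and #e6, *Stab2* (317 and 318 CPM) sits between them, and *Lyve1* (2.80 and 2.32 CPM) and *Ier3* (1.36 and 1.77 CPM) sit far below #e3, #e5 and #e8.

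Against the sinusoidal clusters, edgeR called mainly genes that were higher in #e7, but this balance depended on the test. Of 18321 genes tested, 234 were called higher (1.28%) and 21 lower (0.115%), where a call needs an adjusted p under 0.05 together with an absolute log2 fold change of 1 or more. Over all genes 8764 lay above 0 and 9544 below, with a median log2 fold change of -0.11. DESeq2 called 527 genes higher and 1381 lower on the same sums, and sums per plate with sex as a covariate gave 459 and 295. Against single sinusoidal clusters, 36 genes were higher and 10 lower for #e3 (0.196% and 0.0546%), 34 and 8 for #e5 (0.186% and 0.0437%) and 29 and 11 for #e8 (0.158% and 0.0600%). The list of central vein genes had 10 of 12 members called higher and all 12 above 0, with a median log2 fold change of 5.02. The exceptions were *Wnt2* (above) and *Cdh13*, encoding T-cadherin, at 1.67 (SE 0.41, adjusted p = 0.061), which passed in 7 of 11 other fits.

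Von Willebrand factor (*Vwf*), the platelet adhesion protein of large-vessel endothelium, reached 1748 and 1879 CPM in #e7. The same gene stood at 2241 and 3017 CPM in #e1, 420 and 509 CPM in #e6 and 4.83 to 26.4 CPM in #e3, #e5 and #e8. The sums of #e7 lay above all sinusoidal sums and below both sums of #e1. Its log2 fold change was 6.50 against the sinusoidal clusters (SE 0.29, adjusted p = 2.3e-09) and -0.24 against #e1 (SE 0.40, adjusted p = 0.98). The median male and female cell held 1208 and 86.1 CPM of *Vwf* in #e7, and 1837 and 2992 CPM in #e1. The highest cells of #e7 held 10760 and 13340 CPM, so a part of the cells carried its female sum.

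Bone morphogenetic protein 4 (*Bmp4*) was lower in #e7 than in #e1 in each pool, with 548 and 322 CPM against 1154 and 1061 CPM, and well above the 1.31 to 3.90 CPM of #e3, #e5 and #e8. Its log2 fold change was 6.15 against the sinusoidal clusters (SE 0.54, adjusted p = 9.6e-06), and -1.08 against #e1, which missed the threshold (SE 0.77, adjusted p = 0.77). *Selp*, encoding P-selectin that captures leukocytes, reached 1196 and 896 CPM, close to 1292 and 1078 CPM in #e1, and was called at a log2 fold change of 5.03. The median male and female cell held 81.2 and 21.6 CPM of *Selp* in #e7, and 1199 and 1073 CPM in #e1. The sums of #e7 thus came from a part of its cells. *Cyp1b1*, a cytochrome P450 of the vein wall, had 99.9 and 57.5 CPM in #e7, 393 and 300 CPM in #e1 and at most 0.51 CPM in #e3, #e5 and #e8, where the fold (log2 7.65, SE 1.11) rests on very few counts. Endothelin 1 (*Edn1*), a vasoconstrictor, and the ectonucleotidase *Entpd1*, which degrades ATP at the vessel surface, were called at 5.36 and 5.13. Thrombomodulin (*Thbd*), an anticoagulant receptor, and the membrane glycoprotein *Gpm6a* were called at 1.84 and 4.49, but *Thbd* missed the threshold with library totals (1.47, adjusted p = 0.069), with cells of at most 4% ERCC counts (1.87, adjusted p = 0.081) and with sums per plate (0.58 with sex as a covariate and 1.41 with the plate as a block, adjusted p = 0.60 and 0.43).

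By the rule for naming genes, 88 genes qualified as higher than in the sinusoidal clusters, and the 10 with the largest folds included *Vwf*, *Bmp4*, *Edn1* and *Entpd1*. The largest belonged to *Fmo2*, a flavin-containing monooxygenase, with 501 and 949 CPM in #e7, 613 and 2148 CPM in #e1, 1.98 and 50.2 CPM in #e6 and at most 11.8 CPM in #e3, #e5 and #e8 (log2 fold change 7.25, SE 0.92, adjusted p = 0.00051). *Prss23*, a secreted serine protease, followed at 6.09 together with its antisense partner *Prss23os* at 6.09. The protocol does not mark the strand, so the reads of this pair cannot be told apart. *Net1*, a guanine nucleotide exchange factor for RhoA, was called at 5.84, with 514 and 761 CPM in #e7 above 134 and 430 CPM in #e1.

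Extracellular matrix genes of large vessels formed the next group. Of 21 tested matrix and elastic fibre genes, 6 were called higher than in the sinusoidal clusters and none lower. Of all genes tested, 1.28% were called higher and 0.115% lower. In the list 12 genes lay above 0 and 9 below, with a median log2 fold change of 0.64 (0.26 with library totals). Elastin (*Eln*) reached 111 and 173 CPM in #e7, 134 and 312 CPM in #e1 and at most 1.15 CPM in #e3, #e5 and #e8, a log2 fold change of 7.74 (SE 0.81, adjusted p = 6.8e-05). *Fbln5*, encoding the elastic fibre organizer fibulin 5, was at 144 and 77.3 CPM in #e7 and 455 and 401 CPM in #e1 (6.50, SE 0.52). *Fbln2*, *Fstl1* (a secreted BMP modulator) and the proteoglycan *Bgn* were called at 5.55, 5.34 and 1.74. The remaining call, the laminin chain *Lamb1*, rested on the female pool (0.51 CPM in the male and 104 in the female sum) and was lost with cells of at most 4% ERCC counts (0.46, adjusted p = 1.0) and in both fits of plate sums (adjusted p = 0.22 and 0.77).

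Genes of the surface and its transport followed. In the list of caveolae and diaphragm genes, 11 of 12 lay above 0 with a median of 1.33 (8 of 12 and 0.98 with library totals), and *Cavin3*, *Plvap* and *Ehd4* were called. *Ehd4* lost its call with library totals (2.25, adjusted p = 0.059) and in both fits of plate sums (adjusted p = 0.093 and 0.32), and *Cavin3* with the plate as a block (4.90, adjusted p = 0.21). *Plvap*, which builds the diaphragms of caveolae and fenestrae, reached 2379 and 2075 CPM in #e7, 2828 and 2241 CPM in #e1 and 108 to 846 CPM in #e3, #e5 and #e8 (2.23, SE 0.34, adjusted p = 0.0023). Among 13 leukocyte adhesion genes *Selp*, *Vcam1* (1.64), *Jam2* (2.10) and *Alcam* (5.28) were called higher. *Vcam1* lost its call with relative log expression size factors, thinning, library totals and both fits of plate sums (adjusted p from 0.095 to 0.32), *Jam2* with library totals (1.75, adjusted p = 0.05002) and *Alcam* with the plate as a block (4.91, adjusted p = 0.19). Of 17 coagulation genes 5 were called higher, among them *Gas6* (1.77, lost with relative log expression size factors, adjusted p = 0.053), a ligand of TAM receptors, and *Mcfd2* (1.82), a cargo receptor for coagulation factors V and VIII. The remaining calls, *Vwf*, *Thbd* and *Entpd1*, were already counted in the central vein list. In the coagulation list 9 genes lay above 0 and 8 below, with a median of 0.28 (-0.07 with library totals). Beside the calls in each of these lists, 1.28% of all genes tested were called higher and 0.115% lower.

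Metabolic genes were called in both directions. Of 20 genes for drug, metal and amino acid metabolism, 6 were higher and 1 lower than in the sinusoidal clusters. Besides *Cyp1b1* and *Fmo2*, the higher ones included the quinone reductase *Nqo1* (2.63), the epoxide hydrolase *Ephx1* (1.95) and the alcohol dehydrogenase *Adh1* (3.21), which missed the threshold with library totals (2.32, 1.62 and 2.83, adjusted p from 0.065 to 0.12) and with the plate as a block (1.90, 1.60 and 2.69, adjusted p from 0.46 to 0.76). *Nqo1* and *Adh1* also missed it with sums per plate and sex as a covariate (adjusted p = 0.063 and 0.073), and *Nqo1* and *Ephx1* with relative log expression size factors (adjusted p = 0.11 and 0.051). The cytochrome P450 *Cyp4b1* was lower at -2.14 (SE 0.41, adjusted p = 0.014), with 225 and 241 CPM in #e7, 501 and 261 CPM in #e1 and 1286 to 1782 CPM in #e3, #e5 and #e8. *Tgfb2* (5.26) and the receptor *Tgfbr2* (1.73) were called with *Bmp4* among 20 BMP and TGF-beta genes. *Tgfbr2* lost its call with relative log expression size factors (adjusted p = 0.051), thinning (0.062), library totals (0.17) and the plate as a block (0.60, adjusted p = 0.79). *Ntn1* (netrin 1, 6.52) and *Epha4* (5.44) were called among 21 axon guidance genes, *Epha4* from the female pool alone (0.34 and 57.6 CPM) and its call was lost in 8 of 11 other fits (adjusted p from 0.057 to 0.49). None of the 29 endothelial transcription factors, 12 Notch genes, 12 portal vein genes or 12 pan-endothelial genes was called, which in lists of this size is near the 1.28% and 0.115% of all genes called higher and lower. The pan-endothelial genes summed to 17140 and 15630 CPM in #e7, compared with 15110 and 17390 CPM in #e1.

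**Figure D2:**
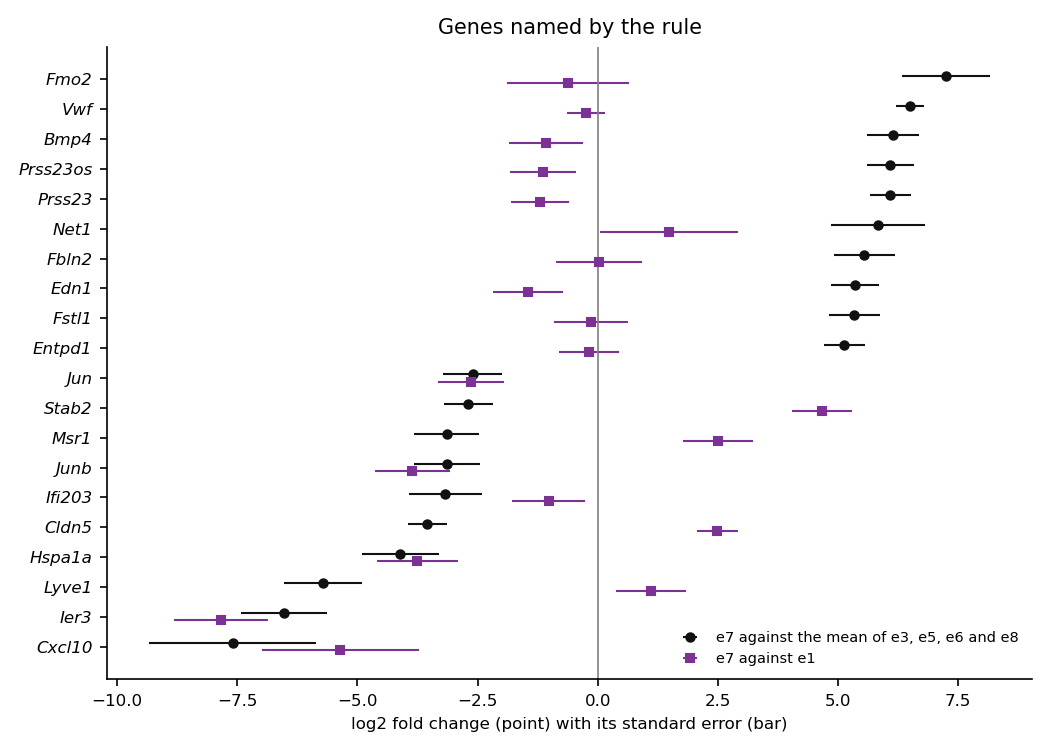
Log2 fold changes of the 20 genes that the naming rule picked in the comparison of #e7 with the mean of #e3, #e5, #e6 and #e8 (circles), with the fold of the same genes against #e1 (squares). Bars are standard errors from edgeR. The higher genes lie between 5.13 and 7.25 against the sinusoidal clusters and between -1.45 and 1.48 against #e1, and among the lower genes *Stab2* turns from -2.70 to 4.67 whereas *Ier3* stays low in both (-6.53 and -7.85).

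The number of genes called between #e7 and #e1 depended on the test. With edgeR, of 18321 genes tested, 1 was called higher (0.00546%) and 2 lower (0.0109%), 1452 genes had an unadjusted p under 0.05, and the median log2 fold change was -0.04. DESeq2 called 112 genes higher and 525 lower on the same sums. In edgeR the counts were 15 and 18 without the filter on low counts, 6 and 8 with at least 10 cells per sum, 1 and 1 with relative log expression size factors and 1 and 3 with library totals. None of the 12 central vein genes was called, 4 of 12 lay above 0 and their median was -0.24. The genes called by edgeR were *Stab2*, *Ier3* and *Malat1*.

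*Stab2* was the gene called higher. Male and female sums of #e7 held 317 and 318 CPM, compared with 20.3 and 10.2 CPM in #e1, 611 and 1443 CPM in #e6 and 2806 to 4548 CPM in #e3, #e5 and #e8. The 3 groups #e1, #e7 and #e6 did not overlap, and on the plate with most cells of #e7 the values were 318, 6.21 and 1520 CPM in #e7, #e1 and #e6. The median male and female cell held 16.2 and 14.2 CPM in #e7, 6.83 and 8.17 CPM in #e1, and 7.75 and 1094 CPM in #e6. The median male cell of #e6 thus lay below that of #e7, unlike the sums. The highest male and female cells of #e7 held 4973 and 4735 CPM, so a part of the cells carried its sums. Against #e1 the log2 fold change was 4.67 (SE 0.62, adjusted p = 0.010), and against the sinusoidal clusters it was -2.70 (SE 0.51, adjusted p = 0.014), a call that was lost with sums per plate and the plate as a block (-1.88, adjusted p = 0.47). Against #e6 it was -1.40 and missed the threshold (SE 0.54, adjusted p = 0.57), but passed with cells of at most 4% ERCC counts (-2.31, adjusted p = 0.025) and was 0.23 with the plate as a block.

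Most other sinusoidal genes had values on the same side without a call against #e1. Of 25 tested receptors and identity genes of the sinusoid, 23 were above 0 against #e1, with a median of 0.77 and *Stab2* as the only call (21 of 25 and a median of 0.48 with library totals), and 23 were below 0 against the sinusoidal clusters, with a median of -1.16 and *Stab2*, *Lyve1* and the protease *Ctsl* (-1.08) called. *Ctsl* lost its call with relative log expression size factors, without the filter on low counts, with the plate as a block and with cells of at most 4% ERCC counts (adjusted p from 0.057 to 0.14). In 14 of 25 genes the level of #e7 lay between those of #e1 and #e6 in both pools, whereas this held for 882 of 18321 genes tested (4.81%). For the central vein list it held for 8 of 12, for the metabolic list for 10 of 20 and for the immediate early list for 1 of 24.

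Expressed as a share of the mean CPM of #e3, #e5 and #e8, the median over the 25 genes was 26.5% and 28.4% in the male and female pool of #e7, 17.5% and 15.7% in #e1, and 43.0% and 64.2% in #e6. The genes differed widely within #e7. *Lyve1* was at 0.539% and 0.657% of the sinusoidal level, *Stab2* at 8.55% and 9.10%, the mannose receptor *Mrc1* at 10.5% and 24.2% and *Dnase1l3*, a secreted DNase, at 25.4% and 28.4%. The lectin *Clec4g* kept 44.8% and 51.2%, and the water channel *Aqp1* 92.6% and 77.2%. *Dnase1l3* at 1161 and 1179 CPM in #e7 stood between 499 and 71.5 CPM in #e1 and 2418 and 2670 CPM in #e6, but was not called against #e1 (adjusted p = 0.61).

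**Figure D3:**
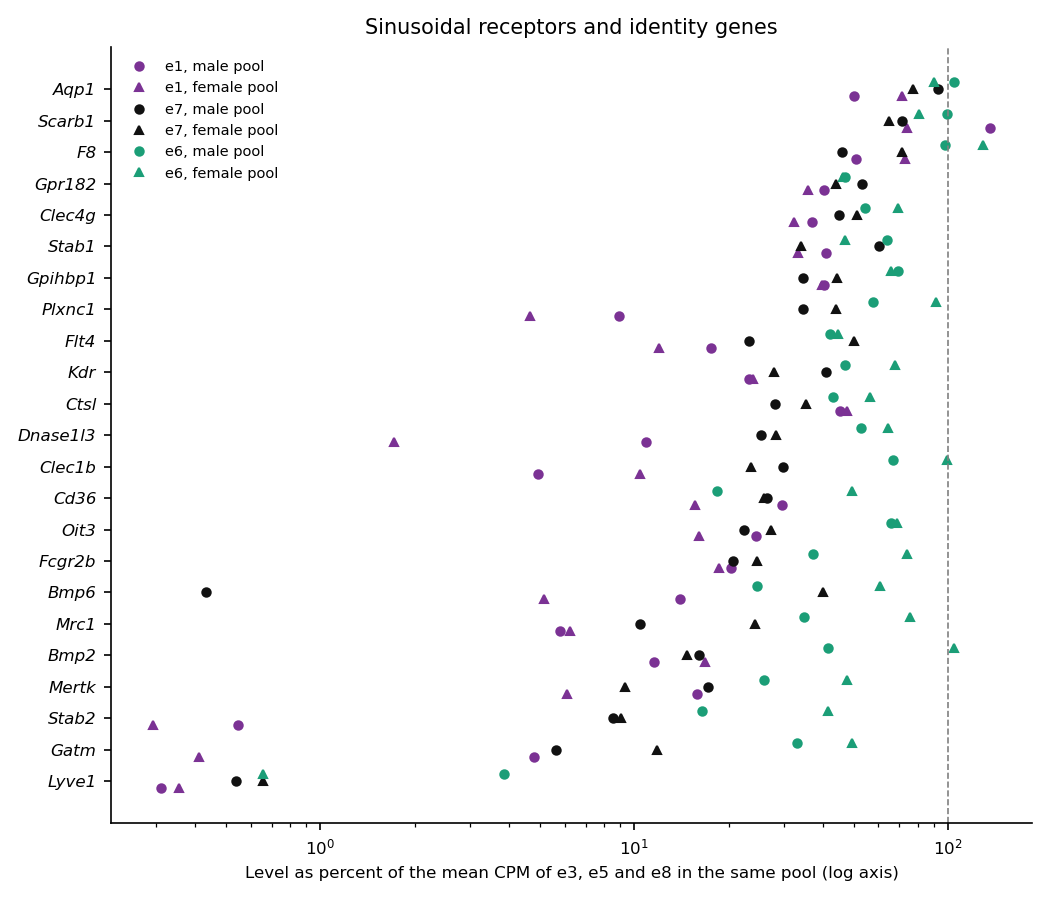
Level of 23 of the 25 sinusoidal receptor and identity genes in #e1, #e7 and #e6 as percent of the mean CPM of #e3, #e5 and #e8 in the same pool, on a log axis, with circles for the male and triangles for the female pool and a dashed line at 100%. *Cd209b* and *Colec12*, which are very low in the female sinusoidal sums, are left out. *Stab2* in #e7 (8.55% and 9.10%) lies between #e1 (0.546% and 0.293%) and #e6 (16.5% and 41.3%), while *Lyve1* is under 1% in #e1 and #e7.

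How often *Stab2* and *Vwf* were found in the same cells of #e7 depended on the limit. At 1 count without thinning, both were present in 118 of 150 cells (78.7%), *Stab2* without *Vwf* in 6 and *Vwf* without *Stab2* in 23, and both were present in 125 of 152 cells of #e1 and 89 of 112 of #e6. Higher limits separated them. In thinned cells, at least 5 *Stab2* counts were present in 31 of 149 cells (20.8%, 14.6 to 28.2%) and at least 5 *Vwf* counts in 82 of 149 (55.0%, 46.7 to 63.2%), but both in 9 of 149. A further 22 cells passed for *Stab2* without *Vwf*, 73 for *Vwf* without *Stab2*, and 45 for neither. By pool, both genes passed in 6 of 70 male and 3 of 79 female cells, *Stab2* alone in 10 and 12, and *Vwf* alone in 36 and 37. In #e1 the cells divided at this limit with *Vwf* alone in 139 of 152 cells, *Stab2* alone in 3 and both in 2. Cells of #e6 showed *Stab2* alone in 49 of 112, *Vwf* alone in 34 and both in 14. Without thinning, 24 of 150 cells of #e7 had at least 20 *Stab2* counts and 79 had at least 20 *Vwf* counts, against 13 and 1 of 397 parenchymal cells. At the lower number of genes detected in #e7, cells that lack a gene and cells in which its transcripts were lost cannot be told apart.

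**Figure D4:**
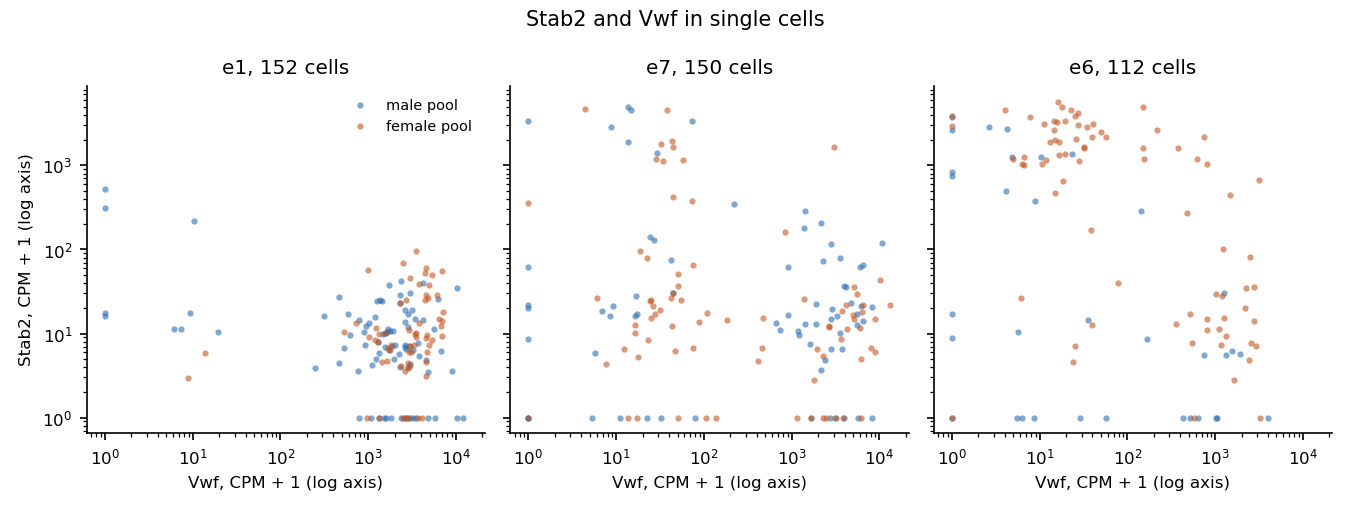
*Stab2* against *Vwf* in single cells of #e1, #e7 and #e6, in CPM plus 1 on log axes, with 1 point per cell coloured by pool. In #e7 the cells spread over the lower right (*Vwf* without *Stab2*, 73 of 149 thinned cells), the upper left (*Stab2* without *Vwf*, 22 cells) and the lower left (45 cells), with few in the upper right (9 cells), all at a limit of 5 counts.

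Other genes of the vein and the sinusoid, such as *Bmp4*, *Cyp1b1* and *Fbln5* (above), had sums in #e7 that did not overlap with those in #e1 but missed the threshold. With a single male and a single female sum per cluster, sums can easily separate by chance, so this alone shows no difference. The share of all genes whose sums separate in this way was not counted. *Cldn5*, a tight junction protein, was at 37.3 and 71.9 CPM in #e7, 14.1 and 10.01 CPM in #e1, 281 and 510 CPM in #e6 and 793 to 1543 CPM in #e3, #e5 and #e8. It was called lower than in the sinusoidal clusters (-3.55, SE 0.41, adjusted p = 0.00016), and its difference from #e1 missed the threshold (adjusted p = 0.099). The scavenger receptor *Msr1* and the interferon-inducible *Cxcl10* and *Ifi203* were also called lower than in the sinusoidal clusters, at -3.14, -7.60 and -3.17. The list of 20 interferon-stimulated genes did not share this direction. Against the sinusoidal clusters 10 lay above 0 and 10 below, with a median of -0.11, as for all genes. *Cxcl10* was its only call, where 0.115% of all genes were called lower, and against #e1 12 of 20 lay above 0. The call of *Ifi203* was lost with relative log expression size factors (-3.39, adjusted p = 0.067) and that of *Cxcl10* with the plate as a block (-4.27, adjusted p = 0.40). *Cxcl10* was at 0.51 and 0.85 CPM in #e7 and at 67.1 and 3.04 CPM in #e1.

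Most immediate early and stress genes had values below 0 in #e7 against each neighbour, though few were called. This list holds transcription factors and heat shock genes that are induced within minutes, also by tissue dissociation. Of 23 tested genes, 22 lay below 0 against #e1 (median -2.24), 22 against the sinusoidal clusters (median -2.49) and 21 against #e6 (median -2.23). Of all 18321 genes tested, 9331, 9544 and 9189 lay below 0 in the same order. The calls in this list were *Ier3* in all 3 comparisons and *Jun*, *Junb* and *Hspa1a* against the sinusoidal clusters. Of all genes tested, 0.0109% were called lower against #e1, 0.115% against the sinusoidal clusters and 0.0109% against #e6. The 24 genes of the list summed to 1727 and 1561 CPM in #e7, 12860 and 3557 CPM in #e1, and 7656 and 3897 CPM in #e6, so that the male sums of #e1 and #e6 were much higher than the female ones.

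*Ier3*, an early response gene that protects from apoptosis, was at 1.36 and 1.77 CPM in #e7, 690 and 198 CPM in #e1, 273 and 198 CPM in #e6 and 78.0 to 358 CPM in #e3, #e5 and #e8. The sums of #e7 lay far below all of these, and the 6 plates with at least 5 cells of #e7 lay between 0.81 and 4.94 CPM. On the plate with most cells of #e7, *Ier3* was at 1.71 CPM in #e7, 166 CPM in #e1 and 156 CPM in #e6. The log2 fold change was -7.85 against #e1 (SE 0.98, adjusted p = 0.010), -6.93 against #e6 (SE 0.94, adjusted p = 0.015) and -6.53 against the sinusoidal clusters (SE 0.89, adjusted p = 0.0010). With the plate as a block it was -5.83, -5.63 and -4.52 in the same order and missed the threshold (adjusted p = 0.097, 0.089 and 0.069).

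*Jun* and *Junb*, subunits of the AP-1 transcription factor, had 139 and 70.3 CPM and 85.1 and 24.8 CPM in #e7, and were called lower than in the sinusoidal clusters at -2.60 and -3.14. *Jun* in #e7 was uneven over plates, from 0 to 1176 CPM, and its call was lost with sums per plate and at 4% ERCC counts (adjusted p from 0.068 to 0.54). The heat shock gene *Hspa1a* was at 19.1 and 26.1 CPM in #e7 and at 468 and 285 CPM in #e1, with -4.11 against the sinusoidal clusters (SE 0.80, adjusted p = 0.016). On the plate with most cells of #e7 it reached 23.4 CPM in #e7, 156 CPM in #e1 and 155 CPM in #e6.

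*Malat1*, an abundant long noncoding RNA retained in the nucleus, was the other gene called lower against #e1. The sums held 525 and 397 CPM in #e7, 1934 and 1581 CPM in #e1, and 2054 and 1536 CPM in #e6, with log2 fold changes of -1.65 against #e1 (SE 0.25, adjusted p = 0.044), -1.68 against #e6 (SE 0.25, adjusted p = 0.028) and -2.12 against the sinusoidal clusters (SE 0.23, adjusted p = 9.3e-05). Against #e1 the call was lost with relative log expression size factors (-1.65, adjusted p = 0.31), sums per plate with sex as a covariate (-2.17, 0.12) or the plate as a block (-2.31, 0.19), 6 clusters in the fit (-1.64, 0.074) and cells of at most 4% ERCC counts (-1.43, 0.20), and against #e6 with the same 5 settings. In single cells the distance was larger. The median male and female cell of #e7 had 48.5 and 72.5 CPM, against 1911 and 1480 CPM in #e1 and 2060 and 1604 CPM in #e6. The highest cells of #e7 reached 8691 and 10340 CPM, and the sums of the cluster lay well above its median cells. Plates of #e7 ranged from 6.24 to 1156 CPM.

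Under a limit of 200 CPM, which was chosen after the values had been seen, lay 123 of 150 cells of #e7 (82.0%) and 39 of 956 other endothelial cells (4.08%). By pool these were 60 of 71 male and 63 of 79 female cells of #e7. Near the limit, between 100 and 400 CPM, lay 31 cells of #e7 and 14 other endothelial cells. The 123 cells under the limit and the 27 at or over it were also summed apart, and held *Rspo3* at 1845 and 2452 CPM, *Vwf* at 1854 and 1669 CPM, *Stab2* at 314 and 333 CPM, *Kit* at 448 and 382 CPM and *Ier3* at 1.43 and 2.45 CPM. Other genes were further apart, with *Hspa1a* at 4.13 and 123 CPM, *Jun* at 114 and 16.9 CPM, *Pecam1* at 1898 and 837 CPM and *Wnt2* at 976 and 635 CPM. Genes detected at 50000 counts were 1492 and 2239, ERCC shares 5.07% and 5.03%.

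*Xist*, the noncoding RNA that coats the inactive X chromosome, can be followed in the female cells. Its sum was 36.8 CPM in #e7, 413 CPM in #e1 and 421 CPM in #e6, and the median female cell had 3.71, 140 and 88.3 CPM. On the plate with most cells of #e7 the sums were 36.9, 418 and 424 CPM. *Neat1*, the scaffold of nuclear paraspeckles, was at 56.9 and 37.0 CPM in #e7 and 174 and 147 CPM in #e1, a difference that missed the threshold (adjusted p = 0.61). *Neat1* and *Xist* were looked at after *Malat1* had been seen. *Malat1* was called against #e1 (above) and *Neat1* was not. *Xist* can be read in the female pool only, whereas the test rests on the spread between the male and the female sum. The test therefore cannot judge *Xist*, and the lack of a call for it carries no information. The ERCC and mitochondrial shares of #e7 exceeded those of #e1 and #e6 (above), and the part of RNA quality in these levels was not tested.

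**Figure D5:**
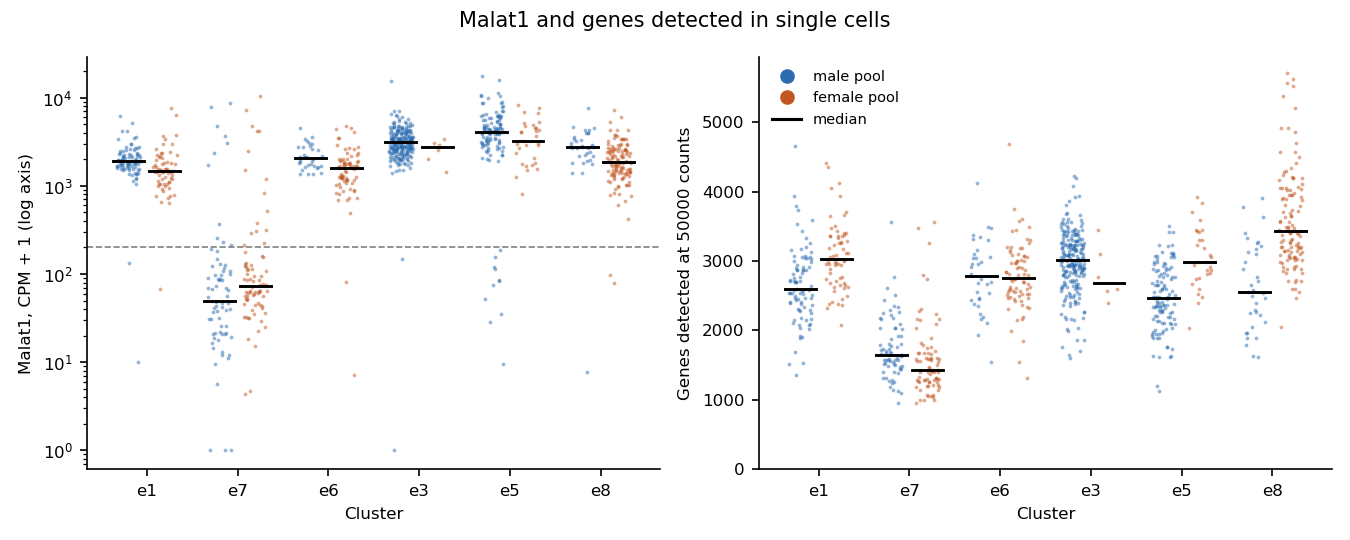
*Malat1* in CPM plus 1 on a log axis (left) and genes detected at 50000 counts (right) in single cells of 6 endothelial clusters, with 1 point per cell coloured by pool, black bars at the medians and a dashed line at 200 CPM. Cells of #e7 are mostly under the line (123 of 150) with medians of 48.5 (male) and 72.5 CPM (female), and they have the fewest genes (median 1572).

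Against cluster #e6, the last sinusoid by its annotation, the count again depended on the test. With edgeR, 3 genes were higher (0.0164%) and 2 lower (0.0109%) in #e7, 1601 genes had an unadjusted p under 0.05. DESeq2 called 183 higher and 601 lower, and edgeR 21 and 13 without the filter, 14 and 12 with at least 10 cells per sum, 5 and 21 with cells of at most 4% ERCC counts, 2 and 1 with relative log expression size factors and 2 and 4 with library totals. Besides *Ier3* and *Malat1*, the 5 genes of the first count were *Ehd2*, *Fbln5* and *Eef1a1*. *Ehd2* and *Eef1a1* are outside the naming rule and were chosen after their values had been seen. *Ehd2*, an ATPase at the neck of caveolae, was at 163 and 230 CPM in #e7, 82.4 and 134 CPM in #e1 and 0.49 and 1.42 CPM in #e6 (log2 fold change 7.95, SE 1.07, adjusted p = 0.015), with plates of #e7 from 0.54 to 968 CPM. *Fbln5* differed by 6.21 (SE 0.91, adjusted p = 0.025). The translation factor *Eef1a1*, a gene with many near-identical copies, differed by 1.46 (SE 0.23, adjusted p = 0.044) and missed the threshold with library totals (1.16, adjusted p = 0.31), relative log expression size factors (1.44, adjusted p = 0.31) and without the filter on low counts (1.44, adjusted p = 0.093). *Vwf* was higher in #e7 than in #e6 in both pools, but missed the threshold (2.26, SE 0.42, adjusted p = 0.13), and it passed in 5 of 11 other fits, among them DESeq2 (adjusted p = 0.0099) and cells of at most 4% ERCC counts (adjusted p = 0.025).

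The levels of #e7 were also described over the genes that separate #e1 from the sinusoidal clusters, of which 244 were higher and 27 lower in #e1 (1.33% and 0.147% of genes tested). On a scale where 0 is the sinusoidal mean and 1 is #e1, #e7 had a median position of 0.80 among the 244 higher genes (quartiles 0.28 and 0.96), with 165 genes past 0.5, 41 past 1 and 26 under 0. Among the 27 lower genes the median was 0.49 (quartiles 0.36 and 0.56). The genes were chosen for their distance between #e1 and the same sinusoidal mean, which alone draws other clusters away from 1, so the positions are no test. The order of the sets depended on the setting. The higher and lower sets were at 0.41 and 0.69 with sums per plate and sex as a covariate, 0.38 and 0.47 without the filter on low counts, and 0.51 and 0.59 with cells of at most 4% ERCC counts. In the pools taken alone, on log2 of CPM plus 0.5 without TMM scaling, the medians were 0.73 and 0.52 for the higher and 0.62 and 0.57 for the lower genes, so that the order turned in the female pool.

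Markers of other cell types were present at low levels. The 10 Kupffer cell genes summed to 478 and 3.11 CPM in the male and female pools of #e7, with 70.2 and 16 CPM in #e1 and 1229 and 1882 CPM in #e8. All 10 lay above 0 against #e1 (median 4.17) and none was called. The marker *Clec4f* was at 76.7 CPM in the male pool, 2.81 CPM in the female pool and reached 166 CPM on 1 plate. The 12 hepatocyte genes summed to 678 and 525 CPM in #e7 and 287 and 255 CPM in #e1, all 12 above 0 (median 2.20) and none called. Of 6 lymphatic genes, *Mmrn1* (0.85 and 3.96 CPM) and *Thy1* (10.6 and 0.37 CPM) were called higher than in the sinusoidal clusters, at levels far under those of the lymphatic cluster #e4 (3684 and 3996 CPM of *Mmrn1*), and *Thy1* came from 1 plate with 82.3 CPM. The defining lymphatic factor *Prox1* was at 0.59 and 0.12 CPM. Sums of smooth muscle, cholangiocyte and leukocyte genes in #e7 stayed at or under 110 CPM in each pool, and the part of stray RNA in the calls was not tested.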

How the data were processed

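The authors deposited raw read counts per gene and cell, with the clusters and annotation they had made by pagoda2. Per the labels, bcl2fastq, Bowtie, Bowtie2, featureCounts, Subread and Seurat and the builds GRCm38 and mm10 stand in the submitters' processing notes, without roles. Per the study's methods, cells with at most 50000 counts or 1500 genes, at least 12000 genes (putative doublets), or at least 10% mitochondrial or ERCC counts, and cells with signs of contamination, had been removed. No doublet caller was run here.

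After removal of the 92 ERCC spike-ins, counts were added up per cluster and pool (at least 5 cells, 16 sums). Totals per cell ranged from 49424 to 552947 in #e7, and its sums held 11804329 male and 16394006 female counts. CPM were computed from sums. The test was edgeR 4.0.16 in R 4.3.3 (TMM, filterByExpr, quasi-likelihood, Benjamini-Hochberg over 18321 genes), with all 8 clusters sharing the spread, and was tested on simulated data. A sinusoidal mean is the mean of the fitted log levels of #e3, #e5, #e6 and #e8. A call needs an adjusted p under 0.05 and an absolute log2 fold change of at least 1. Intervals are exact binomial at 95%. These and the limit of 3 cells for a count of 0 cover counting error only. Other values came from Python 3.11.15, numpy 2.4.6, scipy 1.17.1, pandas 2.3.3 and matplotlib 3.10.9.

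The text names *Kit*, *Rspo3*, *Wnt2* and *Lyve1*, members of the gene lists, and per contrast and direction the 10 called genes with the largest folds, a count in at least 50% of cells of the higher side and the same direction in both pools, without provisional symbols. Genes called the same way in both contrasts were named by the same limits. The cluster, lists, rules and tests were chosen with earlier results of these data known. Alternatives were DESeq2 1.42.0, relative log expression size factors, no filter, at least 10 cells per sum, cells thinned to 50000 counts, the pool as a block, sums per plate, 6 clusters, each pool alone, and, added after the data had been seen, cells with at most 4% ERCC counts, library totals in place of TMM, and the plate with most cells of #e7 alone.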

Additional observations from a re-analysis of the deposited data

Results flagged for a closer look

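Among the 76 pairs of a gene and a comparison that were followed through the other fits, the male and the female pool lay on opposite sides of 0 in 3. Genes and sums outside these pairs were not counted. None of these differences was tested because each sex is 1 pool. The log2 ratio of *Lamb1* in #e7 over the mean of #e3, #e5, #e6 and #e8 was -0.18 in the male and 6.45 in the female pool. For *Epha4* these values were -0.90 and 5.45. *Wnt2* in #e7 over #e1 was at -0.08 in the male and 0.31 in the female pool, in a comparison that made no call. At least 1 count of *Lamb1* was found in 6.67% and of *Epha4* in 6% of the cells of #e7.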

How the results depend on the processing

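Over 11 other fits, the 59 calls named in the text gave 649 values, of which 564 kept their side of the threshold, 84 kept the direction only and 1 reversed. The numbers of calls were less stable. Against #e1, the higher and lower calls were 112 and 525 with DESeq2, 1 and 1 with relative log expression size factors, 15 and 18 without a filter on low counts, 6 and 8 with at least 10 cells per sum, 11 and 0 with sums per plate and the plate as a block, 1 and 1 with 6 clusters in the fit, and 3 and 8 with cells of at most 4% ERCC counts. Against the sinusoidal clusters they were 527 and 1381 with DESeq2, 616 and 94 without the filter, 386 and 141 with at least 10 cells, 459 and 295 with sums per plate and sex as a covariate, 85 and 30 with the plate as a block, 290 and 183 at 4% ERCC counts and 117 and 26 with library totals. Lower calls were 50 after thinning and 43 with 6 clusters. Against #e6 they were 183 and 601 with DESeq2, 2 and 1 with relative log expression size factors, 21 and 13 without the filter, 14 and 12 with at least 10 cells, 4 and 4 after thinning, 9 and 3 with sex as a covariate of plate sums, 15 and 0 with the plate as a block, 0 and 1 with 6 clusters, 5 and 21 at 4% ERCC counts, and 2 and 4 with library totals. The cause was not tested.

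With the pool as a replicate block, 2 genes were higher and 3 lower against #e1, 191 and 23 against the sinusoidal clusters and 8 and 4 against #e6. Among the named genes the block changed the call of *Cdh13*, *Lamb1*, *Epha4*, *Ifi203* and, against #e6, *Vwf*, and no other. Most female cells of #e7, #e1 and #e6 came from 1 plate and the male cells from several, no label ties them to the same mice, and over 28 pairs of clusters the male minus female differences correlated from -0.02 to 0.10, so the numbers were not taken to pair the sums.

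The median position among genes higher in #e1 fell from 0.80 to 0.38 without the filter, 0.41 with sums per plate and sex as a covariate and 0.51 at 4% ERCC counts, and was 0.52 to 0.73 in the pools alone. Among genes lower in #e1 it was 0.63 with DESeq2, 0.52 with relative log expression size factors, 0.69 with sums per plate and sex as a covariate, 0.55 with the plate as a block, 0.44 with 6 clusters, 0.59 at 4% ERCC counts, 0.61 with library totals and 0.57 to 0.62 in the pools alone. At a limit of 20 counts the share of cells of #e7 with the gene was 20.7% for *Kit*, 80% for *Rspo3*, 46% for *Wnt2* and 0% for *Lyve1*.

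Directions that reversed belonged mostly to differences without a call. *Rspo3* against #e1 was -0.026 after thinning, -0.20 with sums per plate and sex as a covariate, -0.020 at 4% ERCC counts and -0.21 with library totals. *Wnt2* against #e1 was -0.11 with sums per plate and sex as a covariate. Against #e6 that setting gave -0.033 for *Rspo3*, -0.19 for *Wnt2* and 1.51 for *Lyve1*, and *Wnt2* was -0.067 at 4% ERCC counts and -0.13 with library totals. With the plate as a block *Lyve1* was 0.71 and *Stab2* 0.23 against #e6. *Epha4* reversed to -2.35 at 4% ERCC counts and ranged from -0.90 to 5.45 over the pools taken alone, and *Lamb1* from -0.18 to 6.45. Calls of *Ier3* and *Malat1* against #e1 were lost in 1 and 5 of the 11 fits. With the plate as a block, *Net1*, *Cavin3*, *Ehd4*, *Ntn1*, *Gas6*, *Mcfd2*, *Ctsl*, *Junb*, *Hspa1a*, *Mmrn1*, *Thy1*, *Nqo1*, *Ephx1*, *Adh1*, *Wnt9b*, *Stab2* and *Ier3* also lost their calls against the sinusoidal clusters (adjusted p from 0.069 to 1.0). With 6 clusters in the fit, *Ehd2*, *Fbln5* and *Eef1a1* lost theirs against #e6 (adjusted p from 0.075 to 0.090) and *Mmrn1* against the sinusoidal clusters (0.23). *Thy1* lost its call there at 4% ERCC counts (0.19), and *Ehd2* and *Ier3* against #e6 with the plate as a block (0.077 and 0.089). The call of *Malat1* against #e6 was lost in 5 fits. Leaving out a pool leaves no residual degrees of freedom, so no counts of calls were made there.

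With 1 pool per sex, mice cannot be told apart from plates or sexes, and 78 of 79 female cells of #e7 share a plate. The depth of 11804329 and 16394006 counts limits genes under about 1 CPM.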

Other observations

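A finer clustering in the deposited cell table split #e7, with 134 cells in community 10 and 12 cells in community 9, of which 3 were male and 9 female, from 3 plates. The protocadherin gamma genes, adhesion molecules encoded by a single gene array, were among the genes with the largest ratios of the smaller over the larger set. *Gm38182* and *Pcdha4.1* had larger log2 ratios (6.31 and 6.20) than *Pcdhga6* (6.18), the highest gamma gene. The table holds 22 gamma genes, and 18 had identical counts in each of the 12 cells, so these genes share reads and cannot be told apart. *Pcdhga3* was at 2092 CPM in the 12 cells and 32.1 CPM in the 134 cells, with 1441 CPM in the lowest of the 12 cells. The clusters were drawn on the same transcriptomes, and no test was made.

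Genes of antigen presentation and cell division gave no call in #e7. Of 14 antigen presentation genes, 12 lay above the sinusoidal clusters (median log2 fold change 0.79) and 10 above #e1 (median 0.27, and 7 of 14 with a median of -0.03 with library totals), with sums of 7198 and 7611 CPM in #e7 and 6664 and 7027 CPM in #e1. The 14 cell cycle genes summed to 191 and 92.2 CPM in #e7, compared with 118 and 248 CPM in #e1. Among the vasoactive genes 13 of 15 lay above the sinusoidal clusters (median 0.92), and 10 of 15 with library totals (median 0.57), where 8764 and 7368 of all 18321 genes tested lay above 0. *Edn1* was called, beside 1.28% of all genes called higher.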
